A study of Mus musculus with 3 samples.

Results

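Aminoacyl-tRNA synthetases, the enzymes that load amino acids onto tRNAs, were described in stimulated mouse macrophages through 37 genes. A gene was included when it had a protein-coding transcript and a symbol made of an amino acid letter and "ars", with or without a final 1 or 2, or was Eprs, Farsa or Farsb. The 37 genes were drawn from 55536 genes of the gene table, of which 22028 were protein-coding. By known location of the enzyme, 18 were cytosolic, 17 were mitochondrial and 2, Kars and Gars, serve both compartments.

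The data were total RNA-seq libraries, depleted of ribosomal RNA, from the cytosolic fraction of bone marrow-derived macrophages of C57BL/6J mice. These are primary cells grown from marrow, and they were given Lipid A, the part of bacterial lipopolysaccharide that activates Toll-like receptor 4, at 100 ng/ml for 40 minutes. All 3 libraries belong to this 1 group and carry biological replicate numbers 1, 2 and 3. They point to 1 donor record, sex and age were not collected, and there is no untreated library, so no value below is an effect of Lipid A. Nothing in the labels says that the replicates came from separate animals or cultures, so the spread between them may be technical.

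Each of these enzymes joins 1 amino acid to its tRNAs in an ATP-driven reaction, and the pairing fixes the genetic code. The enzymes fall into class I and class II, which have unrelated catalytic folds. Several cytosolic enzymes sit with the scaffold proteins Aimp1, Aimp2 and Eef1e1 in the multisynthetase complex. Mitochondria translate their own few messages with a separate set of enzymes, encoded in the nucleus and imported. They have no glutaminyl-tRNA synthetase of their own in mammals and amidate a mischarged glutamyl-tRNA instead, through the products of Gatb, Gatc and Qrsl1.

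The libraries held 37861150, 37136495 and 58889061 expected counts for replicates 1, 2 and 3. Nuclear protein-coding genes took 90.1%, 91.3% and 85.3% of these counts. They took only 32.8%, 36.2% and 23.5% of the TPM, a unit scaled by transcript length. Coding genes of the mitochondrial genome were left in the remainder. In TPM, 87.4% of the 11458 detected protein-coding genes were lowest in replicate 3, where detected means a mean of at least 0.1 TPM. The 6 macrophage markers summed to between 5356 and 9189 TPM, with Lyz2 the highest at 5974 ± 1620 TPM (SD, n = 3). Markers of lymphocytes, stromal cells and erythroid cells each summed to at most 0.23 TPM and the T cell gene Cd3e was at 0 counts. Neutrophil markers summed to between 13.6 and 19.3 TPM, mostly from S100a8 at 12.7 ± 3.71 TPM and Ngp at 2.80 ± 0.54 TPM, with Ly6g at 0. Mast cell markers summed to between 0.44 and 0.68 TPM, with Kit the highest at 0.51 ± 0.20 TPM. Nuclear RNAs stood highest in replicate 3, where Malat1, Neat1 and Xist summed to 981 TPM against 323 and 282 TPM in replicates 1 and 2, and all 3 passed the spread test described below.

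Sequences upstream of 3 genes are shown because they hold the motifs counted in the promoter search that follows. They are the 250 bases before the RefSeq start (build GRCm38.p6), read 5′ to 3′ on the gene's strand, with the motif in capitals. For Gars, at chr6:55037751-55038000 on the plus strand, and Tars, at chr15:11399659-11399908 on the minus strand, the capitals mark the C/EBP-ATF composite, whose letters are TGATGNAAN, here on the opposite strand. For Farsb, at chr1:78488898-78489147 on the minus strand, they mark the E-box CACGTG, a motif bound by MYC and related factors.
Gars: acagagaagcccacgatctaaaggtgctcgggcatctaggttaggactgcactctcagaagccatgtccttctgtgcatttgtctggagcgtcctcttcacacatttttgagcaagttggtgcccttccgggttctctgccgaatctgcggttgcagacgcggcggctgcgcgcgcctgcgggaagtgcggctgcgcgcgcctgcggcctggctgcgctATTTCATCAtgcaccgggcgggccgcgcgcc
Tars: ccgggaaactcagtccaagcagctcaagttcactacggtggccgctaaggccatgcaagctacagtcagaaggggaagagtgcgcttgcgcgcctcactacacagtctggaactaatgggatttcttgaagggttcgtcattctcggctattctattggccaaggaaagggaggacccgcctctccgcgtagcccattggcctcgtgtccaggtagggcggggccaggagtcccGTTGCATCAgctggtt
Farsb: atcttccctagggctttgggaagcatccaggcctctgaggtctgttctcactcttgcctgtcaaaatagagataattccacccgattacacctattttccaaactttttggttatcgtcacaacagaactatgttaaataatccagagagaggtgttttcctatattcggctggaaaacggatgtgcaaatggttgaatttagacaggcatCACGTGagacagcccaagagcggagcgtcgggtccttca

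Windows of 250 bases before to 50 after the start were matched for 26 of the 37 genes. Genes without a window here included Nars, Rars, Hars, Wars, Lars, Cars, Vars, Mars, Hars2 and Pars2. The C/EBP-ATF composite, the element through which ATF4 acts on amino acid response genes, was found on either strand in 5 of the 12 matched genes of the cytosol or both compartments, namely Gars, Aars, Iars, Tars and Yars. It was found in 0 of the 14 matched mitochondrial genes and in 4.50% of all 27025 genes with a window. The E-box was present in 4 of 12 (Farsb, Aars, Iars and Tars) and in 1 of 14 (Ears2), against 8.09% of all genes. Aars, Iars and Tars held both motifs without overlap between them. The cyclic AMP response element TGACGTCA was in none of the 26 windows and in 2.03% of all genes. These are letter matches, not binding sites, and the libraries hold no measure of binding.

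In the cytosolic fraction sequenced here, messages of cytosolic enzymes were more abundant than those of mitochondrial enzymes. The median level was 10.2 TPM over the 18 cytosolic genes, 1.82 TPM over the 17 mitochondrial genes and 6.17 TPM over all detected protein-coding genes. At least 10 TPM was reached by 10 of 18 cytosolic genes and by 0 of 17 mitochondrial genes, against 37.5% of detected protein-coding genes. All 18 cytosolic genes were above 1 TPM, as were 14 of the 17 mitochondrial ones. The ranges overlapped in the middle, since 5 mitochondrial genes lay above the lowest cytosolic gene.

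On the log2(TPM + 1) scale the median of the cytosolic genes exceeded that of the mitochondrial genes by 1.96, 2.06 and 1.82 in replicates 1, 2 and 3, and by 1.98 ± 0.12 (SD, n = 3) on the mean levels. The direction was the same in 3 of 3 libraries. These are levels in a pool of cells, in which fewer cells of a type and less RNA per cell cannot be told apart. No test over genes was made, and a two-sided sign-flip permutation over 3 libraries cannot give a p below 0.25.

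**Figure D1:**
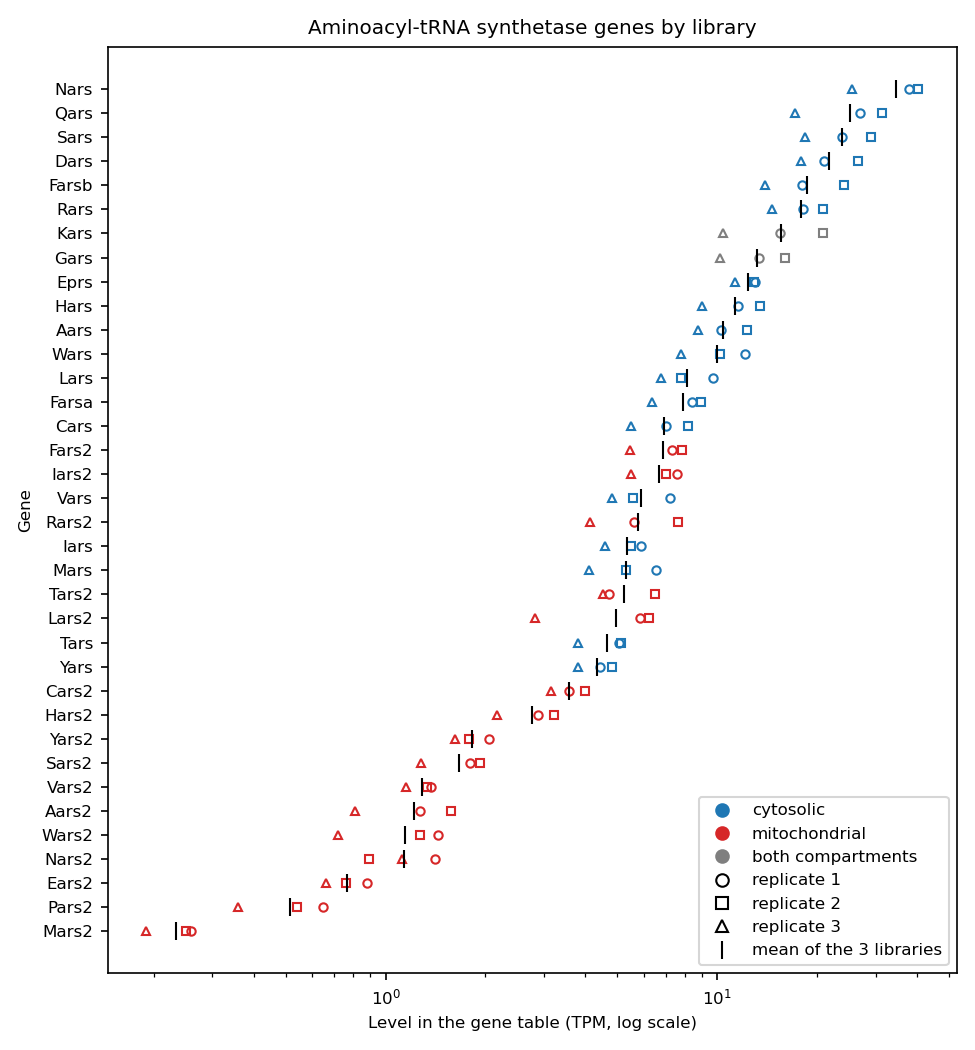
Level of 36 synthetase genes in TPM on a log axis, with 1 symbol per replicate, colour for the compartment and a tick for the mean of the 3 libraries. Cytosolic genes fill the upper part from 4.35 to 34.5 TPM, mitochondrial genes the lower part from 0.233 to 6.88 TPM, and replicate 3 is the lowest library for all of them but Nars2.

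Nars, the asparaginyl-tRNA synthetase, was the highest of the cytosolic genes, at 37.8, 40.4 and 25.4 TPM in replicates 1, 2 and 3. Qars, which charges glutamine and belongs to the multisynthetase complex, was at 26.9, 31.5 and 17.2 TPM. Sars, the seryl enzyme, was at 23.8, 29.0 and 18.3 TPM. In all 3 genes replicate 2 was highest and replicate 3 lowest, and in every library the order was Nars first. Qars was above Sars in replicates 1 and 2 and below it in replicate 3, so these neighbours were not separated by their spread.

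Dars, the aspartyl enzyme, was at 21.8 ± 4.36 TPM (SD, n = 3) and Rars, the arginyl enzyme, was at 17.8 ± 3.12 TPM. Hars, for histidine, reached 11.3 ± 2.22 TPM and Aars, for alanine, 10.4 ± 1.80 TPM. Below 10 TPM lay Lars, the leucyl enzyme that also reports leucine to the growth regulator mTORC1, at 8.09 ± 1.49 TPM. Cars, for cysteine, was at 6.89 ± 1.35 TPM, Vars, for valine, at 5.87 ± 1.23 TPM, and Iars, for isoleucine, at 5.33 ± 0.66 TPM.

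The lowest cytosolic gene was Yars, the tyrosyl enzyme, at 4.43, 4.80 and 3.81 TPM. Tars, the threonyl enzyme, was at 5.05, 5.13 and 3.80 TPM. Mars, which charges both initiator and elongator methionine tRNAs, was at 6.53, 5.32 and 4.09 TPM. The 3 genes overlapped one another in their ranges and lay within the range of the mitochondrial genes.

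Wars, the tryptophanyl enzyme and a gene known to be induced by interferon, was at 12.1, 10.2 and 7.76 TPM. Replicate 1 was highest and replicate 3 lowest, and the mean of 10.01 ± 2.18 TPM placed it near the cytosolic median. Eprs encodes a single chain with a glutamyl and a prolyl enzyme, and after interferon its product also silences inflammatory messages. Eprs was at 13.0, 12.9 and 11.3 TPM, the smallest drop in replicate 3 among the cytosolic genes above 10 TPM. The cytosolic phenylalanyl enzyme is built from the catalytic chain Farsa and the beta chain Farsb. Farsa was at 8.40, 8.94 and 6.37 TPM. Farsb was at 18.0, 24.1 and 13.9 TPM. Farsb was higher than Farsa in every library, and the libraries of the pair of chains did not overlap.

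The genes whose products work in both compartments lay among the higher cytosolic genes. Kars, the lysyl enzyme, was at 15.4, 20.9 and 10.4 TPM. Gars, the glycyl enzyme, was at 13.4, 16.0 and 10.2 TPM. Kars was above Gars in each library, by less in replicate 3 than in replicate 2.

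The 8 synthetase genes of the multisynthetase complex had a median of 14.0 TPM, against 10.01 TPM for the 11 cytosolic genes outside it. Of the scaffold genes, Aimp1 was at 11.5 ± 2.40 TPM (SD, n = 3), Eef1e1 at 2.41 ± 0.53 TPM and Aimp2 at 2.31 ± 0.52 TPM, so Aimp2 and Eef1e1 were below each of the complex's enzymes. Cytosolic class II enzymes had a median of 15.0 TPM over 8 genes and class I enzymes 6.89 TPM over 9 genes; Eprs, which holds a domain of each class, was counted in neither. Among mitochondrial enzymes the medians were 2.22 TPM over 8 class II genes and 1.82 TPM over 9 class I genes.

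Fars2, the mitochondrial phenylalanyl enzyme and a single chain unlike its cytosolic counterpart, had the highest level of its group, at 7.32, 7.85 and 5.46 TPM. Iars2, for isoleucine, was at 7.55, 7.01 and 5.49 TPM. Rars2, for arginine, was at 5.62, 7.59 and 4.12 TPM. The 3 genes overlapped across libraries, and the first of them differed between replicates 1 and 2.

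The next mitochondrial genes were Tars2, for threonine, at 5.23 ± 1.09 TPM and Lars2, for leucine, at 4.95 ± 1.86 TPM (SD, n = 3). Cars2, for cysteine, was at 3.58 ± 0.42 TPM and Hars2, for histidine, at 2.76 ± 0.54 TPM. Yars2 and Sars2, the tyrosyl and seryl enzymes, were at 1.82 ± 0.22 and 1.67 ± 0.34 TPM. Vars2, Aars2 and Wars2, for valine, alanine and tryptophan, were at 1.28 ± 0.12, 1.22 ± 0.38 and 1.14 ± 0.38 TPM.

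At the bottom, Mars2, the mitochondrial methionyl enzyme, was at 0.26, 0.25 and 0.19 TPM. Pars2, the prolyl enzyme, was at 0.65, 0.54 and 0.36 TPM. Ears2, the glutamyl enzyme that starts the amidation route, was at 0.88, 0.76 and 0.66 TPM. These values rest on few counts for Pars2, with 52, 38 and 83, and Ears2, with 101, 75 and 165. Mars2 had 158, 141 and 238 counts, more than Pars2 in every library, spread over an annotated transcript of 11294 bases, which makes its value per length the lowest.

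Within enzyme pairs that charge the same amino acid, the cytosolic gene was higher in all 3 libraries for 16 of 18 pairs. The largest difference was for asparagine. Nars2 was at 1.41, 0.89 and 1.12 TPM, and Nars exceeded it on the log2(TPM + 1) scale by 4.01, 4.45 and 3.64, or 30.3 times on mean TPM. Sars exceeded Sars2 by 3.20 ± 0.14 (SD, n = 3) and Eprs exceeded Pars2 by 3.14 ± 0.05 and Ears2 by 2.92 ± 0.05 on the same scale. Alanine, tryptophan and methionine pairs differed by 2.37, 2.36 and 2.34. The added 1 compressed the methionine difference, because Mars2 lay below 1 TPM: with a pseudocount of 0.1 it was 4.003. In mean TPM, Mars was 22.8 times Mars2, against 14.2 times for serine, 8.57 for alanine and 8.76 for tryptophan. That order depended on scaling by length. By CPM, counts scaled to library size alone, methionine differed by 1.92 log2 units, against 3.68 for serine, 3.68 for alanine and 2.45 for tryptophan.

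A smaller difference was seen for 8 pairs. Histidine, valine, arginine and the pair of Farsb with Fars2 differed by 1.71, 1.57, 1.49 and 1.30 on the log2(TPM + 1) scale, and tyrosine, cysteine and leucine by 0.92, 0.78 and 0.65. Farsa exceeded Fars2 by 0.18, 0.17 and 0.19 in the gene table. With the second transcript table the values were 0.25, -0.01 and 0.24, so that Farsa was not higher in replicate 2, and CPM gave 0.85. The linear ratio of mean TPM over the 18 pairs had a median of 4.34.

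Isoleucine was the exception in every library. Iars was at 5.90, 5.49 and 4.60 TPM, below Iars2 in 3 of 3 libraries, with differences of -0.31, -0.30 and -0.21. Iars2 shares 2034 bases with Rab3gap2, an expressed gene on the opposite strand, so its counts are uncertain there. The part of that overlap in the isoleucine difference was not tested. For threonine the sign varied. Tars2 was at 4.70, 6.48 and 4.51 TPM, and Tars differed from it by 0.09, -0.29 and -0.20. The direction of the threonine pair therefore did not hold across replicates, and it was 0.00812 by the second transcript table and 0.72 by CPM, the expected counts scaled to library size without length.

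**Figure D2:**
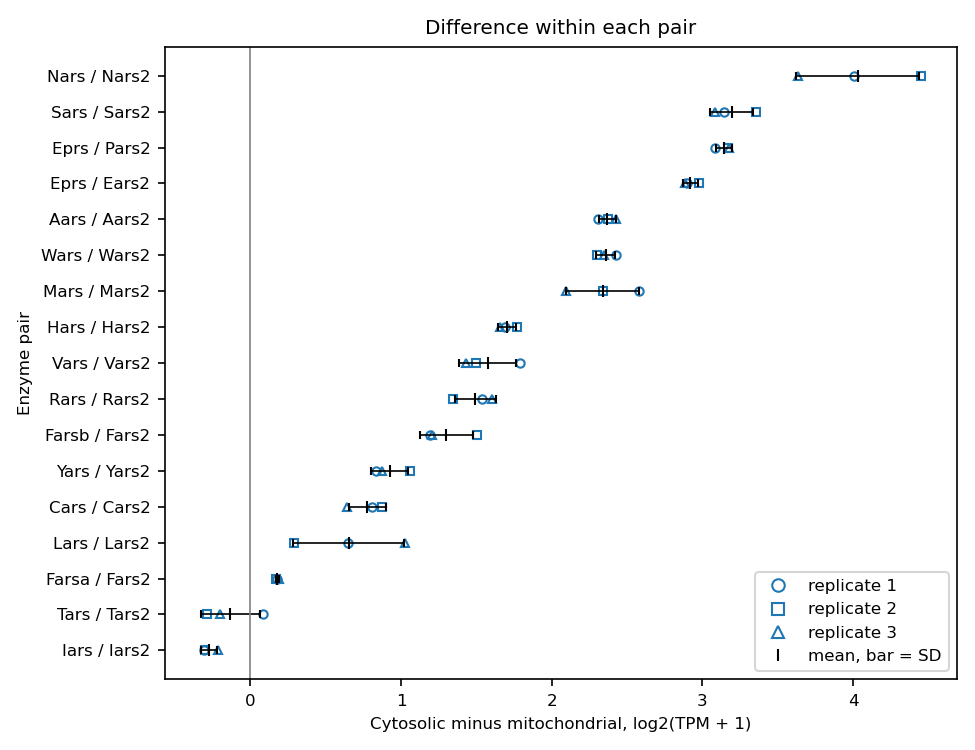
Difference between the cytosolic and the mitochondrial gene of 17 pairs, in log2(TPM + 1), with 1 symbol per replicate and the mean ± SD of the 3 libraries in black. The differences run from -0.28 for Iars and Iars2 to 4.03 for Nars and Nars2, and the threonine pair straddles 0.

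The synthetase genes together took 0.128%, 0.131% and 0.129% of the counts in nuclear protein-coding genes in replicates 1, 2 and 3. In TPM their sum was 327, 365 and 242, so that replicate 3 was lowest, as it was for 36 of the 37 genes taken singly. After scaling to the TPM of nuclear protein-coding genes only 6 of the 37 were lowest in replicate 3, against 27.0% of detected protein-coding genes. On that scale the coefficient of variation over the libraries had a median of 11.3% for the synthetase genes and 12.5% for detected protein-coding genes. It ran from 1.49% for Sars2 to 31.7% for Nars2. Nars2 was lowest in replicate 2 on that scale, at 4.30, 2.46 and 4.76. By CPM it was at 3.96, 4.42 and 4.75, lowest in replicate 1, and the cause of this contrast was not tested.

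Whether any gene varied between the replicates more than genes of like level was tested with edgeR's goodness-of-fit test over all 12250 genes that passed the filter on low counts. Of these, 209, or 1.71%, had a Benjamini-Hochberg adjusted p under 0.05, and 0 of the 37 synthetase genes did. All 37 had passed the filter. Without replicate 1, 2 or 3, the calls over all genes numbered 114, 129 and 59, and again 0 synthetase genes. At an unadjusted p under 0.05 there were 753 genes in all and 1 synthetase gene, Lars2. The SD of log2 CPM had a median of 0.14 over the 37 genes and 0.16 over all genes tested, and 25 of the 37 lay below the latter. Lars2 had the widest spread, at 4.93, 4.93 and 4.31 log2 CPM, lowest in replicate 3 (adjusted p = 0.649 by edgeR). Fars2 had the narrowest, at 3.36, 3.39 and 3.38.

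Lists of genes that act beside the synthetases gave no call in this test, in which 1.71% of all genes tested were called. The counts were 0 of 6 related genes, 0 of 7 mitochondrial partners, 0 of 15 tested amino acid and stress response genes and 0 of 4 kinases of eIF2alpha. At that share, lists this short would give few calls in any case. Among 7 mitochondrial partners the median was 2.74 TPM, with Trnt1, which adds the CCA end to tRNAs, highest at 7.51 ± 0.86 TPM (SD, n = 3) and Qrsl1 of the amidation route lowest at 1.37 ± 0.22 TPM. The 6 related genes, among them editing factors and paralogs, ran from Tarsl2 at 1.27 ± 0.13 TPM to Prorsd1 at 8.62 ± 1.96 TPM.

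Among 16 amino acid and stress response genes the median was 2.17 TPM. Slc3a2, the heavy chain of amino acid exchangers, was highest at 141 ± 10.3 TPM and Chac1, a late target of the response, was lowest at 0.11 ± 0.12 TPM. Of the kinases that slow translation, Eif2ak2, an interferon-induced sensor of double-stranded RNA, was highest at 18.5 ± 4.29 TPM. Eif2ak4, which senses uncharged tRNA, was lowest at 3.47 ± 0.46 TPM.

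Transcripts annotated as coding held over 50% of the TPM in both transcript tables for 32 of the 37 genes. These were 17 of 18 cytosolic genes and 13 of 17 mitochondrial genes, besides those of both compartments. The median coding share was 93.7% over the 37 genes in the first transcript table and 92.3% in the second, against 97.9% and 95.9% over detected protein-coding genes. The transcript with the largest share was the same one in both tables for 34 of 37 genes. Qars was an exception among cytosolic genes, with a coding share of 44.3%, 19.9% and 29.6% in the first table. Its leading transcript was Qars-231, annotated for nonsense-mediated decay, the pathway that destroys messages with an early stop, at 44.6 ± 4.38% of the gene (SD, n = 3). In the second table Qars-231 held 48.8 ± 0.69%. Mitochondrial exceptions in the second table included Lars2, Cars2 and Nars2, with mean coding shares of 21.6%, 42.3% and 49.98%.

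Fars2 owed part of its rank to a short noncoding transcript. Its coding share was 58.7%, 51.8% and 56.7% in the first table, and Fars2-206, a processed transcript of 506 bases, held 42.8 ± 4.11% of its TPM (SD, n = 3) on 44.8, 52.4 and 70.6 expected counts. Counting coding transcripts alone in the second table, Farsa exceeded Fars2 by 0.59 on the log2(TPM + 1) scale, against 0.16 with all transcripts of that table and 0.18 in the gene table.

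Each library was also quantified in a separate table, and the gene table was set against it with limma over 11653 protein-coding genes detected in either table. After centring on the median gene of each library, 8364 genes, or 71.8%, differed at an adjusted p under 0.05, and 29 of the 37 synthetase genes did. Relative to the median gene, 38.7% of all genes tested and 14 of the 37 passed that threshold and were higher in the second table. Without replicate 1 the calls fell to 1314 genes and 5 synthetase genes. These shares depend on the scale. The second table gave nuclear coding genes 15.3%, 18.0% and 7.03% of its TPM, so the added 1 weighed more on its low genes. When TPM was first rescaled to nuclear protein-coding genes, 1799 genes and 3 synthetase genes, Lars2, Mars and Sars, passed.

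Lars2 stood apart from the other 36 genes. In the gene table it was at 5.83, 6.21 and 2.82 TPM, and in the second table at 12.3, 19.0 and 5.85 TPM, although the median gene tested had lower TPM there. Relative to the median gene, the gene table minus the second table was -1.80, -2.26 and -2.03 on the log2(TPM + 1) scale in replicates 1, 2 and 3. The mean of -2.03 (SE 0.06, adjusted p = 3.68e-241 by limma, with the same sign in 3 of 3 libraries) was the 16th most extreme in that direction among 11653 genes. The size of that p comes from a variance shared over all genes, and with rescaled TPM the adjusted p by limma was 0.01 for a difference of -2.45. The rank of Lars2 also depended on the setting: it was 26 with rescaled TPM and 110 with a pseudocount of 0.1.

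**Figure D3:**
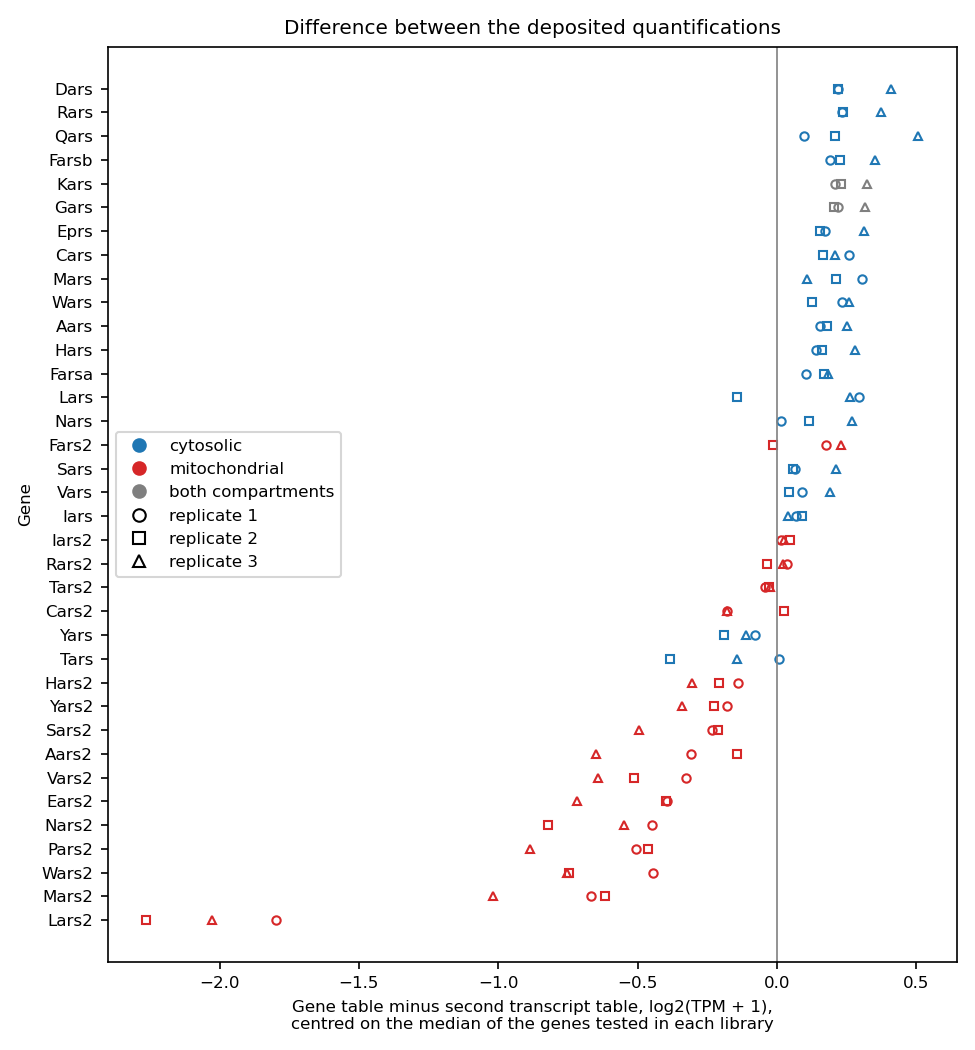
Gene table minus second transcript table for 36 synthetase genes, in log2(TPM + 1) centred on the median gene of each library, with 1 symbol per replicate and colour for the compartment. Lars2 lies at -1.80 to -2.26 in the 3 libraries, and the other genes drawn lie above -1.02.

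The counts showed where the difference was. Lars2 had 1160, 1169 and 1124 expected counts in the gene table and 4703, 7459 and 5120 estimated counts in the second table, or 4.05, 6.38 and 4.56 times as many. The coding transcript Lars2-201 had 972, 965 and 1045 counts in the first transcript table and 1471, 1427 and 2128 in the second. Lars2-209, annotated for nonsense-mediated decay, had 185, 204 and 72.6 counts in the first and 2980, 5734 and 2176 in the second. The retained intron transcript Lars2-205, of 889 bases, was at 0 in the first table and had 243, 292 and 779 counts in the second. In the second table Lars2-209 thus held 63.4%, 76.9% and 42.5% of the gene's counts, and most of the surplus of replicate 2 lay there.

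Lars2-201 and Lars2-209 differ little, and the longest stretch in which they do is shown. How reads were assigned between these transcripts was not tested. Both lie on the plus strand of chromosome 9 (mm10, GENCODE M21), and each line joins the end of exon 11 to the start of exon 12, with the bases that only that transcript carries in capitals. Exon 11 ends at 123432001 in Lars2-201 and at 123432005 in Lars2-209, and exon 12 starts at 123436117 and at 123436234. Lars2-201 has 117 bases of its own here and Lars2-209 has 4; beyond them the transcripts differ only in the start of exon 1 and the end of exon 21.
Lars2-201: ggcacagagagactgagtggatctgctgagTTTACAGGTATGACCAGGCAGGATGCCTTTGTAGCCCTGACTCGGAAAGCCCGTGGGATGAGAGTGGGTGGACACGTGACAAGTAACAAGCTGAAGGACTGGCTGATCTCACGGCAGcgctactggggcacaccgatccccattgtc
Lars2-209: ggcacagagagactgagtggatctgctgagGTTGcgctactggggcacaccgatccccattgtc

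**Figure D4:**
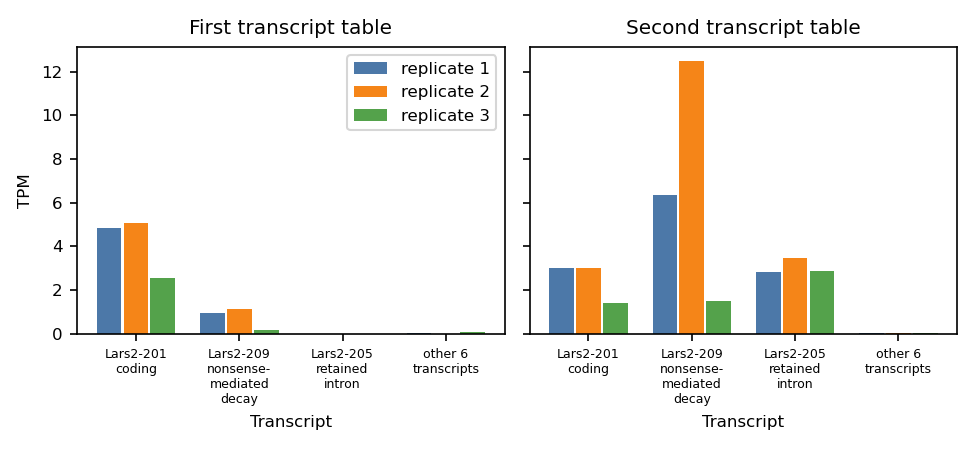
TPM of Lars2 by transcript in the first and the second transcript table, with 1 bar per replicate. In the first table Lars2-201 leads at 4.84, 5.09 and 2.57 TPM, and in the second Lars2-209 leads in replicates 1 and 2 at 6.37 and 12.5 TPM while Lars2-205 leads in replicate 3 at 2.87 TPM.

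Lars2 was examined for reads of ribosomal RNA by shared sequence. No word of 25 bases on either strand of Lars2-201, Lars2-205 or Lars2-209 was found in any of the 360 transcripts searched as ribosomal RNA. They included mt-Rnr1, mt-Rnr2 and the chromosome 17 loci Gm26917, Gm42418 and AY036118, which are annotated as long noncoding RNA and were added by name. The full nuclear ribosomal RNA precursor was not used here, so that source was not tested. Among all 141758 other transcripts, a search chosen after the values were seen, words were shared with 2 genes. AA474408, an unconfirmed gene on chromosome 7, shared 44 words and Gm15564, an antisense gene on chromosome 16, shared 28. The words lay between bases 3172 and 3329 of Lars2-201, in the last exon and after the stop codon, which ends at base 2908. Both genes shared as many words with Lars2-209, between its bases 3032 and 3189.

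AA474408 was, like Lars2-209, much higher in the second table, although its shared words lie in Lars2-201 as well. It had 14, 23 and 36 expected counts in the gene table and 1063, 2826 and 1044 estimated counts in the second table, highest in replicate 2 as Lars2-209 was. Gm15564 had 0 counts in the gene table and 6.02, 4.01 and 6.08 in the second.

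The order of the libraries at the ribosomal RNA loci differed between loci and tables. In the gene table mt-Rnr2, the large mitochondrial ribosomal RNA, was at 5.46, 21.4 and 7.78 TPM and mt-Rnr1, the small one, at 10.7, 29.5 and 11.3 TPM, both highest in replicate 2. Gm26917 was at 93.6, 16.5 and 81.7 TPM and Gm42418 at 79.1, 42.8 and 129 TPM, both lowest in replicate 2, and AY036118 was at 0. In the second table mt-Rnr2 was at 7.27, 11.2 and 4.70 TPM and mt-Rnr1 at 7.17, 16.3 and 4.42 TPM. Both were there highest in replicate 2 and lowest in replicate 3. Gm26917, at 57.2, 11.5 and 30.2 TPM, and Gm42418, at 32.3, 14.7 and 39.8 TPM, were again lowest in replicate 2. Lars2 was also highest in replicate 2 and lowest in replicate 3 in either table, but both places were common. In gene table TPM, 87.4% of the 11458 detected protein-coding genes were lowest in replicate 3, and 7352 were highest in replicate 2. With TPM rescaled to nuclear protein-coding genes, Lars2 in the gene table was highest in replicate 1. All 4 loci with counts passed the spread test, and their part in the Lars2 values was not tested.

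The choice of table changed the leucine pair. Lars exceeded Lars2 by 0.65, 0.29 and 1.02 on the log2(TPM + 1) scale in the gene table, while with the second table the mean difference was -1.52. With its coding transcripts alone the second table gave 0.19. Leaving Lars2 out moved the difference between the cytosolic and mitochondrial medians from 1.98 to 2.02.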

How the data were processed

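The 3 libraries are 1 group, so no groups were compared. The authors deposited, per the file headers, a gene table and a first transcript table of expected counts and TPM, both derived from transcriptome alignments (mm10, GENCODE M21), and a second transcript table of estimated counts and TPM derived from the reads. Neither the tools behind these tables nor the strand setting of the counting is named in those headers or in the labels. TPM is scaled to all RNA in a library, so the share taken by noncoding RNAs and mitochondrial genome transcripts lowers the values of nuclear coding genes.

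The genes and lists were chosen with earlier results of these data known. All synthetase genes but 1, which is counted in the totals and not reported singly here, were named, with values by library for the 3 highest and 3 lowest of each compartment, the extreme pairs, Farsa, Farsb, Eprs, Kars, Gars, Wars and Lars2; other lists are given by their highest and lowest gene and any called. Levels are gene table TPM, compared as log2(TPM + 1). Expected counts were rounded to whole numbers for edgeR 4.0.16 (filterByExpr, TMM, trended dispersion, goodness of fit); limma 3.58.1 compared the tables (trended moderation). P-values were adjusted by Benjamini-Hochberg over all genes tested, and both tests were tested on simulated data. No count model was run on TPM. Promoters are from RefSeq, Lars2 sequences from M21. Library depth was 37136495 to 58889061 expected counts. Alternatives changed the pseudocount, filters, table, scaling and libraries used. Protein lengths and identities were not analysed here.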

Additional observations from a re-analysis of the deposited data

How the results depend on the processing

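The cytosolic median stayed above the mitochondrial median under all 12 alternatives. The difference was 1.98 on the log2(TPM + 1) scale. It was 2.42 with a pseudocount of 0.1, 1.53 with the second transcript table and 1.48 with its coding transcripts alone. With CPM it was 2.31, and with TPM rescaled to nuclear protein-coding genes 2.30. It was 1.54 without genes under 1 TPM and 1.85 as a difference of means. Without 1 library it was 1.90 to 2.06. The cytosolic gene was higher in all 3 libraries for 13 to 17 pairs, the 13 being of the 15 pairs left without genes under 1 TPM.

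Of 144 recomputed pair differences, 73 moved by less than the SD between libraries and 68 by more with the same sign. The other 3 changed sign: leucine at -1.52 with the second table, and threonine at 0.00812 with the second table and 0.72 with CPM. The causes were not tested.

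In the spread test 0 synthetase genes were called under every alternative. Of all genes, 209 were called, 115 among protein-coding genes alone and 59 to 129 without 1 library, where fewer libraries entered. With the second table's estimated counts the adjusted p of Lars2 was 0.0741, and over all alternatives it ran from that to 1.00.

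Between the tables, 8364 genes and 29 synthetase genes differed. The counts were 3594 and 12 with a pseudocount of 0.1, and 1799 and 3 with TPM rescaled first, an alternative chosen after seeing the data. Without 1 library they were 1314 to 7455 and 5 to 26, lowest without replicate 1. Lars2 kept its sign and its call under all 9 alternatives, from -2.45 to -1.09, the latter without centring.

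No paired analysis was possible because the 3 libraries are 1 group. Protein lengths and identities were not run. With 3 libraries, 1 group and 1 donor record, no effect of Lipid A and no variation between animals can be read from these values. The lowest genes, Pars2 and Ears2, rest on 38 to 165 counts a library, where counting error limits the precision.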

Other observations

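Some synthetase genes overlap other expressed genes on the opposite strand, so their counts are uncertain there. For Hars with Hars2, Iars2 with Rab3gap2 and Cars2 with Naxd, the expected counts were fractional. In each library the fractions of such a pair made up a whole count, so some reads were divided between opposite strands. Hars and Hars2 share 198 bases at their starts. Hars had 1114.83, 1219.88 and 1732.73 expected counts in replicates 1, 2 and 3, and Hars2 had 437.17, 410.12 and 612.27. Mars shares 68 bases with Ddit3, a stress response factor, which was at 38.6 TPM. Iars2 shares 2034 bases with Rab3gap2, which had 5468.21, 6801.51 and 9665.41 counts. Iars2 had fewer in every library, at 2086.79, 1901.49 and 3027.59. Cars2 shares 984 bases with Naxd, with 271.87, 262.94 and 468.94 counts for Cars2 and 535.13, 605.06 and 774.06 for Naxd. Wars shares 544 bases with Wdr25.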
